A study of Mus musculus with 12 samples.

Results

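The genes described here are the solute carriers, the largest group of membrane transporters, in regulatory T cells (Tregs) of NOD mice. Of 24417 symbols in each deposited table, 331 had the form of a mouse solute carrier name (Slc, a family number, the letter a and a member number). A gene was taken when its mean normalized count was at least 10 in all 4 of the authors' tables, which 93 of the 331 met, and Slc37a2 and Slc2a1 were named outright. Slc2a1 also met the level and Slc37a2 did not, so the set held 94 genes. A further 35 of the 331 reached the level in 1 to 3 tables (Slc37a2 is among them), and 203 reached it in none, of which 105 had a mean normalized count of 0 in all 4. The lowest of a member's 4 means was 10.4 for Slc25a13, 10.5 for Slc12a4 and Slc17a9 and 11.4 for Slc35a2. Just outside stood Slc30a6 at 9.49, Slc12a2 at 9.57 and Slc26a11 at 9.74, and Slc37a2 had a lowest mean of 9.06. Slc37a2 and Slc2a1 were picked for how they behave in these data, so they are described with no test. They are left out of every count of calls and every class median, which leaves 92 genes chosen by level alone, while FPKM levels and motif counts cover the 94.

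Tregs are T cells marked by Foxp3 that hold back immune responses, and here they carried an introduced T cell receptor (TCR) for insulin. Per the design text the mice were two-TCR retrogenic, that is, their blood cells grew from bone marrow carrying introduced receptor genes, and the TCRs 4-8 and 12-4.4m1 are named in the order of high and low affinity. Every library was of the NOD strain, a model of autoimmune diabetes, at an age of 6.8 weeks, and the labels name no agent. Sorted cells of the 2 TCRs from 2 tissues made 4 groups, each with 3 libraries: islet 4-8, islet 12-4.4m1, spleen 4-8 and spleen 12-4.4m1. All groups express an introduced TCR, so none shows Tregs with only their own receptors. Whether libraries came from different mice, or the TCRs from the same ones, is not labelled, so p-values measure only the spread between these libraries, which may be technical.

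Each comparison had a table of its own, normalized separately by the authors, with 6 libraries. The values used per library are rlog values, a log2 scale on which genes of low count are pulled towards their mean, so differences of such genes are understated. The sources used here do not give library depths. The mean normalized counts summed to between 898995 and 1316454 a table, and the 94 genes made up 0.637% to 0.741% of them. Foxp3 had mean normalized counts of 572 to 900, and Cd8a of at most 0.301. Among islet libraries, 3 titles use another style than the rest (4-8 replicate 2, and 12-4.4m1 replicates 1 and 2). Between tissues in 4-8, title style in the model in effect leaves out islet replicate 2, the only library of that style there. It gave 13 members called, where the count given here is 7, and 1212 genes in all, against 717. In 12-4.4m1 that model leaves islet replicate 3 alone to carry the tissue difference, so its calls are not given. A 4-8 column in the data for the TCRs in islets has a full name that matches no title, and it is called the library without a matched number. No column there bears the title of islet 4-8 replicate 3, and whether the unmatched column is that library is not given. For spleen replicate 2 of each TCR the sample description lists the tissue table of the other TCR, and the titles were followed. Each tissue comparison holds 1 of these libraries. Without it 4 members were called in 4-8 and 4 in 12-4.4m1, and 370 and 313 genes in all.

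Solute carriers move small molecules across the plasma membrane and the membranes of organelles, some by exchange or along a gradient and some driven by sodium or protons. T cells that are activated take up more glucose and amino acids, and the transporters for these are set in part by the receptor, by growth signals and by nutrient stress. Most Slc25 genes encode carriers of the inner mitochondrial membrane, which link the cytosol to respiration by moving nucleotides, phosphate, amino acids and cofactors. By substrate class, assigned from the family number with a few exceptions, the set held 23 Slc25 genes, 16 amino acid transporters, 14 carriers of lipids, vitamins and organic ions, 13 of metal ions, 12 of inorganic ions, 7 sugar transporters, 4 of the Slc35 nucleotide sugar family, 3 of nucleosides and 2 of monocarboxylates. Slc25a17 lies in the peroxisome and was kept with its family.

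The 3 genes on which the tissue results turn were Slc3a2, Slc38a2 and Slc5a3, and the 250 bases before the start of each are shown because the data called these genes, and no other member, in both TCRs. They are from RefSeq on GRCm38.p6, 5′ to 3′ on the strand of the gene, with 6 motifs searched on both strands and each match in capitals. Slc3a2 is at chr19:8713898-8714147 on the minus strand, Slc38a2 at chr15:96699729-96699978 on the minus strand, and Slc5a3 at chr16:92058072-92058321 on the plus strand. The RefSeq start of Slc3a2 lies inside the GENCODE gene, which runs from 8706882 to 8723369, so it is not the only start annotated.
Slc3a2: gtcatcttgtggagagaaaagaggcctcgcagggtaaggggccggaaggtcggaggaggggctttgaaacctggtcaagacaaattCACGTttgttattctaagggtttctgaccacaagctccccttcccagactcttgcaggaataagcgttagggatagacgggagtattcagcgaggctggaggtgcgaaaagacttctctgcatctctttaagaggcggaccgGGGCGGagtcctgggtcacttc
Slc38a2: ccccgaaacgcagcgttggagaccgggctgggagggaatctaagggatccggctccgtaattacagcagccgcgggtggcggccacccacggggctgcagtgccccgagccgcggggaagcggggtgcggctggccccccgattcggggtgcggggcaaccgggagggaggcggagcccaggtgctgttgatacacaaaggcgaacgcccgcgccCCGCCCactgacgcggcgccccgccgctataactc
Slc5a3: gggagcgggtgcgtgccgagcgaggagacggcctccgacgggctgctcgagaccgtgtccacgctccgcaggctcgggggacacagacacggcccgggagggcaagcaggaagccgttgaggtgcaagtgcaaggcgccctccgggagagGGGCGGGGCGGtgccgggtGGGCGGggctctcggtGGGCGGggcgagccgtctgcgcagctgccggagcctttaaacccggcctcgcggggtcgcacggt

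The motifs were the GC box GGGCGG, the core of the hypoxia response element ACGTG, the AP-1 site TGANTCA, the cyclic AMP response element TGACGTCA, the amino acid response element TGATGNAA and the tonicity element, given by name. Slc3a2 held 1 hypoxia core and 1 GC box, Slc38a2 held 1 GC box and Slc5a3 held 4, the first pair of which overlap. No match of the AP-1, cyclic AMP, amino acid response or tonicity motif lay in these 3 windows. The GC box was found in 32.7% of all 32851 promoters of the table and in 59.9% of the 7826 promoters of genes that reached the level in all 4 tables. The hypoxia core was in 16.6% and 23.2% of them. Of the 94 transporter genes, 67 matched the promoter table by symbol, and of these 70.1% held the GC box, 29.9% the hypoxia core, 10.4% the AP-1 site, 4.48% the cyclic AMP element, 2.99% the amino acid response element and 1.49% the tonicity element. The 4 last motifs were in 4.06%, 3.0%, 1.87% and 3.14% of the promoters of genes at that level. A match is a run of letters and not a measured binding site.

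Levels between genes can be compared only per transcript length, for which the authors' FPKM of each group was used, with no replicate error since 1 value is given per group. Islet and spleen values here come from the TCR comparisons, which were normalized separately, so small gaps between tissues cannot be read from them. The mitochondrial carriers made up most of the transporter transcripts. Slc25a5, the main ADP/ATP exchanger of proliferating cells, had 877 FPKM in islet 4-8, 698 in islet 12-4.4m1, 563 in spleen 4-8 and 552 in spleen 12-4.4m1. Slc25a3, the mitochondrial phosphate carrier, had 507, 449, 433 and 460 in the same order. In the tissue comparison of 12-4.4m1 it had 470 in islets and 444 in spleen, the reverse order. Summed over the class, Slc25 genes gave 1878, 1581, 1423 and 1411 FPKM, of 3244, 2807, 2571 and 2544 for all 94 genes. Amino acid transporters summed to 480, 470, 284 and 299. Without Slc3a2 and Slc38a2 the other 14 summed to 211, 227, 205 and 223, so nearly all of the gap between tissues was in those 2 genes. Sugar transporters summed to 277, 171, 248 and 243, which includes Slc2a1 and Slc37a2, and the 5 chosen by level to 208, 145, 236 and 235. Islet 12-4.4m1 had the lowest sum either way, and islet 4-8 the highest only with that pair.

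After the pair of mitochondrial carriers came Slc3a2, the heavy chain of CD98 that brings several amino acid exchangers to the cell surface, with 193 and 178 FPKM in islet 4-8 and islet 12-4.4m1 against 51 and 49.6 in spleen. Slc50a1, a sugar efflux transporter, had 108, 74.5, 114 and 135, and Slc25a4, another ADP/ATP exchanger, had 79.4, 69.2, 93.1 and 86.2. In the tissue comparison of 4-8, Slc50a1 had 111 in islets and 110 in spleen. These are single group values, so neighbours of similar level, such as Slc3a2 and Slc50a1 by their means of 118 and 108, cannot be ordered beyond error. Only 4 members averaged at least 100 FPKM over the 4 groups, and 44 of 94 averaged under 10. Slc38a10 (56.4 on average), Slc25a11, the oxoglutarate carrier (53.4), Slc38a2, a sodium-driven transporter of small neutral amino acids (48.9), and Slc29a1, the equilibrative nucleoside transporter (45.6), followed. In the smaller classes the leading genes by mean FPKM were Slc39a1 and Slc39a7, both zinc transporters (32.8 and 28.6), Slc9a9, a sodium/proton exchanger, and Slc20a1, a phosphate transporter (30.4 and 28.7), Slc44a2, a choline transporter-like protein (25.6), and Slc35a1, the CMP-sialic acid carrier of the Golgi (22.7).

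**Figure D1:**
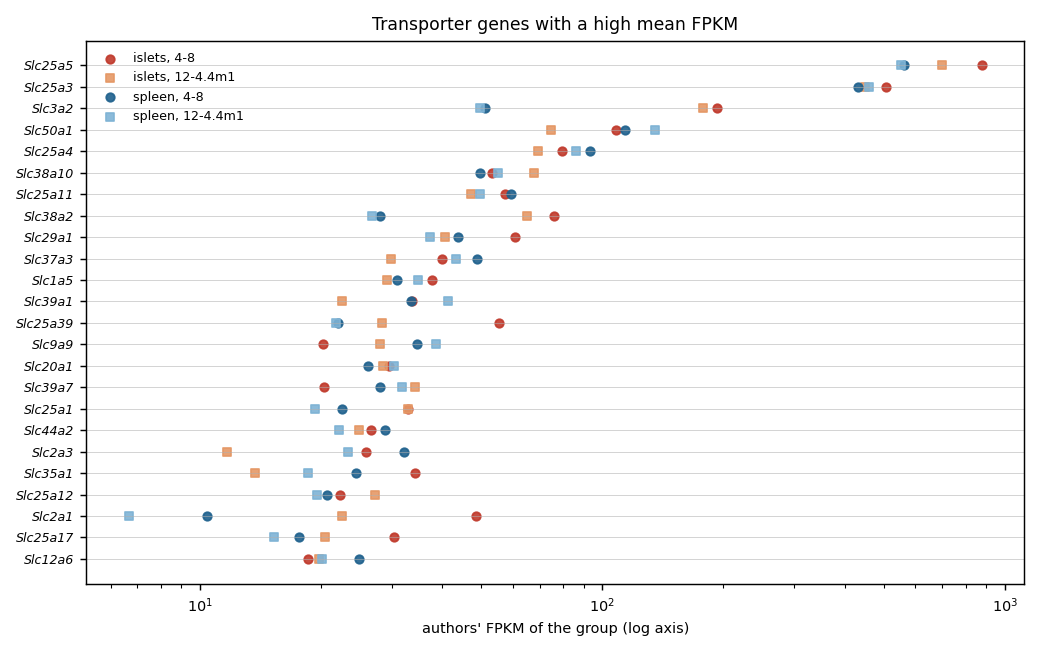
Authors' FPKM (log axis) of 24 transporter genes with a high mean over the 4 groups, with 1 point per group and no error, since the deposited table gives 1 value per group. Islet and spleen points come from comparisons that were normalized separately. Slc25a5 and Slc25a3 are at 433 or more in every group, and Slc3a2, Slc38a2 and Slc2a1 have their islet points to the right of their spleen points.

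Between islets and spleen, 3 transporters were higher in islet Tregs of both TCRs: Slc3a2, Slc38a2 and Slc5a3. In 4-8, 7 of the 92 genes passed at an adjusted p of 0.05 (7.61%), 5 of them higher in islets and 2 lower, against a background of 7.98% of the 8981 genes tested and 7.95% of the 7928 genes that, like them, reached the level in all 4 tables. In 12-4.4m1, 5 of 92 passed (5.43%), all higher in islets, against 6.81% of the 8438 genes tested and 6.55% of those 7928. Both shares are near the background, and so were the directions: 5.14% of all genes passed as higher and 2.84% as lower in 4-8, and 4.63% and 2.18% in 12-4.4m1. The authors' own DESeq2 tables called 7 and 5 of the 92 genes, and 6.76% and 4.72% of all genes. Their Cuffdiff results called 9 and 7 of the 92, and 12.7% and 11% of all genes. Groups did not overlap for 26 and 23 of the 92 (28.3% and 25%), where 27.4% and 24.1% of all genes had this pattern, and 18 and 16 had an unadjusted p under 0.05 (19.6% and 17.4%, against 22.2% and 20.3%). The 3 shared genes are 42.9% of the 7 and 60.0% of the 5. For all genes the shared calls numbered 294, which is 42.9% of those in 4-8 and 51.7% of those in 12-4.4m1. In whole sorted populations, fewer cells of a type and less RNA per cell cannot be told apart.

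Slc3a2 had rlog values of 9.0, 8.93 and 9.39 in the islet 4-8 libraries and 7.50, 7.85 and 7.70 in the spleen 4-8 libraries. In the table of the other TCR it had 8.38, 8.46 and 8.87 in islets and 7.25, 7.05 and 7.20 in spleen. Every islet library stood above every spleen library in each table. The difference was 1.42 ± 0.16 (SE) in 4-8, which is 2.68-fold on the rlog scale, with an adjusted p of 1.69e-05, and 1.40 ± 0.16 in 12-4.4m1, 2.64-fold, with an adjusted p of 1.18e-06. The authors' FPKM of the tissue tables were 199 and 49.0 in 4-8, and 186 and 47.9 in 12-4.4m1.

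The exchangers that pair with Slc3a2 were measured beside it. Slc7a5, the large neutral amino acid exchanger for leucine and its like, had rlog values of 5.33, 4.49 and 5.08 in islet 4-8 and 4.51, 4.33 and 4.40 in spleen 4-8. Islet replicate 2 lay within the spleen range, and the difference of 0.55 ± 0.21 did not pass (adjusted p = 0.122). In 12-4.4m1 the difference of Slc7a5 was 0.19 ± 0.19 (adjusted p = 0.622). Slc7a6, the exchanger of cationic for neutral amino acids, differed by 0.36 ± 0.18 and -0.04 ± 0.18 (adjusted p of 0.265 and 0.940). Without islet 4-8 replicate 2, Slc7a5 and Slc7a6 were among 13 members that passed in 4-8, 9 higher and 4 lower, where the calls over all genes numbered 1211 in place of 717.

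Slc38a2 had 8.84, 9.15 and 8.57 in islet 4-8 and 7.75, 7.86 and 7.83 in spleen 4-8. Its values were 8.16, 8.30 and 8.15 in islet 12-4.4m1 and 7.31, 7.18 and 7.31 in spleen 12-4.4m1, so the groups did not overlap in either table. The differences were 1.04 ± 0.16, 2.06-fold (adjusted p = 4.48e-04), and 0.94 ± 0.15, 1.92-fold (adjusted p = 1.77e-04). The related carrier Slc38a1 moves the same kind of amino acids and differed by 0.06 in each TCR, with overlapping groups and adjusted p of 0.875 and 0.888. Other amino acid transporters did not pass in either TCR: Slc1a5, a sodium-driven carrier of glutamine, differed by 0.23 ± 0.17 and -0.07 ± 0.17, Slc7a1, the arginine and lysine carrier, by 0.28 ± 0.18 and 0.29 ± 0.19, and Slc6a6, the taurine transporter, by -0.29 ± 0.16 and -0.00 ± 0.16. The class median was 0.04 in 4-8 and 0.16 in 12-4.4m1, against -0.01 and -0.00 over all genes tested, with 9 and 11 of 16 genes above 0.

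Slc5a3, which takes up myo-inositol with sodium, had 8.60, 8.57 and 8.00 in islet 4-8 and 7.15, 6.77 and 6.93 in spleen 4-8. In the other TCR it had 7.64, 7.13 and 7.65 in islets and 5.32, 5.95 and 6.30 in spleen, again without overlap. The differences were 1.44 ± 0.18 (adjusted p = 5.12e-05) and 1.62 ± 0.21 (adjusted p = 9.43e-06), 2.72-fold and 3.07-fold. On GRCm38 the gene is on chromosome 16 from 92058322 to 92087473 and shares 159 exonic bases on the same strand with Mrps6, a mitochondrial ribosome gene, so reads of that stretch cannot be assigned to 1 of them. Mrps6 itself differed by 0.77 ± 0.20 in 4-8 (adjusted p = 0.0215) and by 0.42 ± 0.18 in 12-4.4m1 (adjusted p = 0.185). Title style in 12-4.4m1 aside, these 3 genes passed in each alternative tried in each TCR, the 6 that leave out a library included. The 15 alternatives are not all distinct, since leaving out the spleen libraries numbered 2 repeats a fit of those 6. In 4-8, title style in effect repeats another.

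**Figure D2:**
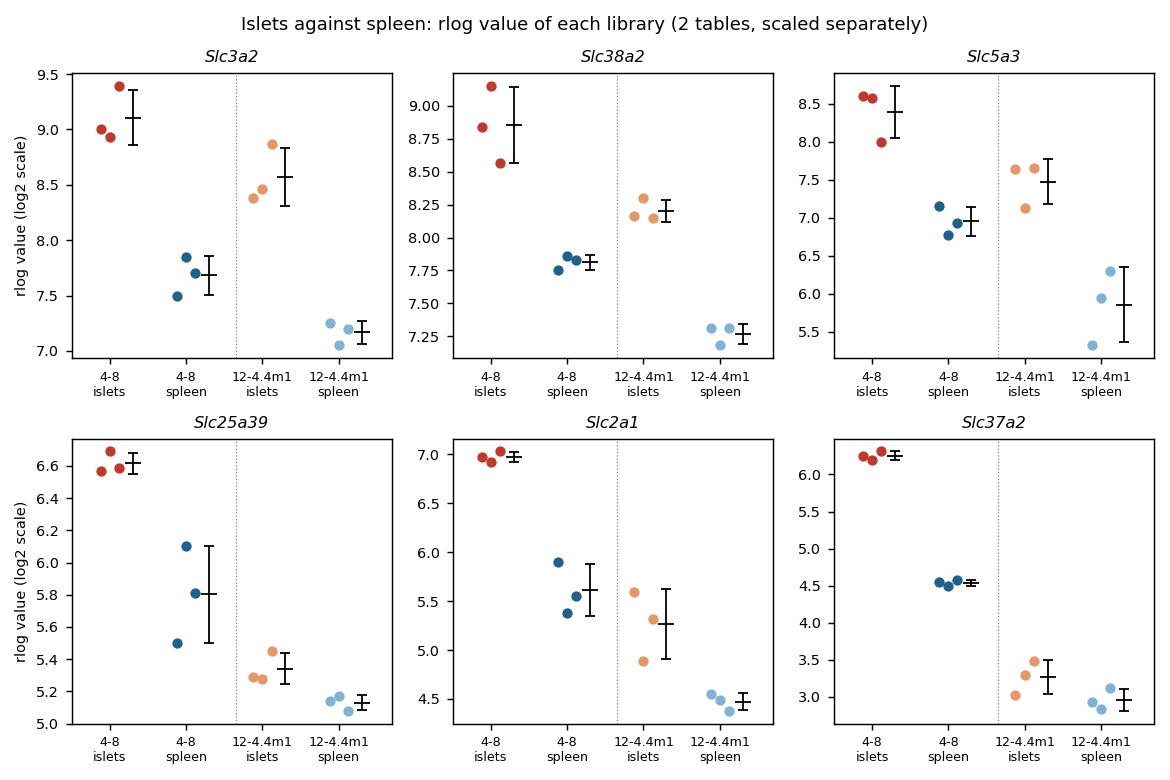
The rlog value of each library (log2 scale) for 6 transporter genes in islets and spleen, with the mean and SD of 3 libraries in black, where the dotted line parts the tables of the TCRs, which were scaled separately. For Slc3a2, Slc38a2, Slc5a3, Slc25a39 and Slc2a1 all islet points stand above all spleen points in each table, while Slc37a2 overlaps in 12-4.4m1 (3.03 in islets, 3.12 in spleen).

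Mitochondrial carriers were among the further calls for higher values in islets. Slc25a39, a carrier needed for the import of glutathione into mitochondria, had 6.57, 6.69 and 6.59 in islet 4-8 against 5.50, 6.10 and 5.81 in spleen 4-8. The difference was 0.82 ± 0.18 (adjusted p = 0.00946). In 12-4.4m1 it had 5.29, 5.28 and 5.45 against 5.14, 5.17 and 5.08, a difference of 0.21 ± 0.18 that did not pass (adjusted p = 0.580). Without spleen 4-8 replicate 1 the 4-8 difference was 0.67 with an adjusted p of 0.0844, and it passed without any of the other 5 libraries.

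Slc25a5 had 10.17, 10.01 and 10.21 in islet 4-8 and 9.48, 9.70 and 9.62 in spleen 4-8, a difference of 0.53 ± 0.13 (adjusted p = 0.0202). In 12-4.4m1 the difference was 0.32 ± 0.15 (adjusted p = 0.228), from 9.31, 9.11 and 9.66 against 9.01, 9.03 and 9.09. The groups did not overlap in either table. The 4-8 call was lost without spleen replicate 1, 2 or 3 or islet replicate 1 (adjusted p of 0.138, 0.0569, 0.0967 and 0.0704), and with no mean-variance trend in limma (adjusted p = 0.0578). GENCODE lists a transcribed processed pseudogene, Slc25a5-ps, and how the authors' counting divided reads between near-identical copies is not given in the sources used here.

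Over the 23 Slc25 genes the median tissue difference was 0.09 in 4-8 and 0.11 in 12-4.4m1, with 13 and 16 above 0. Others in the class were close to no difference, such as Slc25a4 at -0.08 in each TCR, or lay lower in islets, such as Slc25a44, a carrier of branched-chain amino acids, at -0.32 ± 0.22 and -0.46 ± 0.20, and neither passed. Slc25a3 differed by 0.27 ± 0.14 and 0.09 ± 0.15 (adjusted p of 0.263 and 0.784), and Slc25a51, the mitochondrial NAD carrier, by 0.55 ± 0.22 and 0.34 ± 0.21 (adjusted p of 0.145 and 0.410).

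Among the metal ion carriers, Slc41a1, a magnesium transporter, was called as higher in islets in 12-4.4m1, with 5.82, 5.58 and 6.17 against 5.22, 5.03 and 5.13. The difference was 0.73 ± 0.19 (adjusted p = 0.0204), and in 4-8 it was 0.48 ± 0.18 (adjusted p = 0.117), with no overlap in either table. The call was lost without spleen 12-4.4m1 replicate 1, 2 or 3 or islet replicate 3 (adjusted p of 0.0602, 0.110, 0.0593 and 0.0820). Slc39a9, a zinc transporter, was lower in islets in 4-8, with 5.31, 5.54 and 5.34 against 6.16, 6.11 and 6.04, a difference of -0.71 ± 0.17 (adjusted p = 0.0156). In 12-4.4m1 its groups overlapped and the difference was -0.07 ± 0.20 (adjusted p = 0.892). Slc39a9 shares 459 exonic bases with Erh on the opposite strand, and without a statement on strand their reads cannot be told apart there; Erh differed by 0.44 ± 0.20 in 4-8 and did not pass (adjusted p = 0.195). The call of Slc39a9 was lost without spleen 4-8 replicate 1, 2 or 3 or islet replicate 1 (adjusted p of 0.0910, 0.0766, 0.0638 and 0.0503).

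The zinc exporter Slc30a1 differed by -0.48 ± 0.19 in 4-8 and 0.20 ± 0.18 in 12-4.4m1, and the zinc importer Slc39a1 by 0.08 ± 0.17 and -0.48 ± 0.21; none of these passed. The class median was 0.01 and -0.07. Slc14a1, a urea transporter counted with the organic ions, was lower in islets in 4-8, with 5.27, 5.50 and 5.30 against 6.04, 5.89 and 6.08, a difference of -0.65 ± 0.17 (adjusted p = 0.0278). It did not pass in the authors' DESeq2 table (adjusted p = 0.0779), nor here without spleen 4-8 replicate 1, 2 or 3 or islet replicate 1 (adjusted p of 0.127, 0.0777, 0.149 and 0.0768). In 12-4.4m1 Slc14a1 differed by -0.15 ± 0.20 (adjusted p = 0.747).

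Inorganic ion carriers had no call in either TCR. Slc4a7, a sodium bicarbonate carrier, differed by -0.43 ± 0.24 and 0.02 ± 0.19, with values of 7.19, 7.64 and 6.47 in islet 4-8 and 7.95, 7.24 and 7.41 in spleen 4-8. The median of the 12 genes was -0.01 in 4-8 and 0.09 in 12-4.4m1. Nucleoside carriers had no call: Slc29a1 differed by 0.36 ± 0.15 (adjusted p = 0.179) and 0.18 ± 0.19 (adjusted p = 0.666), Slc28a2, a sodium-driven purine nucleoside carrier, by -0.40 ± 0.18 and -0.04 ± 0.19, and Slc43a3, a purine base carrier, by 0.01 ± 0.21 and 0.26 ± 0.21. Slc16a1, the lactate and pyruvate carrier, had 4.73, 4.64 and 4.71 in islet 4-8 against 4.31, 4.25 and 4.53 in spleen. Its difference was 0.33 ± 0.17 (adjusted p = 0.282), and 0.28 ± 0.20 in 12-4.4m1 (adjusted p = 0.484).

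The 5 sugar transporters chosen by level gave no call, and 4 of the 5 lay below 0 in each TCR, with medians of -0.14 in 4-8 and -0.34 in 12-4.4m1. The gene above 0 was Slc45a4 (0.01 and 0.02), whose place in the sugar class is unsure, and the medians of the other 4 were -0.18 and -0.42. Slc2a3, the high-affinity glucose transporter GLUT3, had 7.13, 7.31 and 7.08 in islet 4-8 and 7.23, 7.21 and 7.51 in spleen 4-8, a difference of -0.14 ± 0.16 (adjusted p = 0.657). In 12-4.4m1 it had 5.83, 5.52 and 5.92 in islets and 6.32, 6.28 and 6.18 in spleen. These did not overlap, and the difference of -0.50 ± 0.18 did not pass (adjusted p = 0.0960). Slc50a1 differed by -0.01 ± 0.18 in 4-8 and by -0.55 ± 0.19 in 12-4.4m1 (adjusted p = 0.0880). Leaving out islet 12-4.4m1 replicate 2 gave Slc50a1 a difference of -0.75 with an adjusted p of 0.0191. With title style in the model the difference was -0.97, which rests on islet replicate 3 alone. No other islet 12-4.4m1 library is titled in the style of the spleen libraries. Slc37a3, a relative of the glucose-6-phosphate carriers, differed by -0.23 ± 0.16 and -0.34 ± 0.19, and Slc37a1 by -0.24 ± 0.16 and -0.15 ± 0.21.

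Slc2a1, the glucose transporter GLUT1, had 6.97, 6.92 and 7.03 in islet 4-8 against 5.90, 5.38 and 5.55 in spleen 4-8, and 5.59, 4.89 and 5.32 in islet 12-4.4m1 against 4.55, 4.49 and 4.38 in spleen 12-4.4m1. All islet libraries stood above all spleen libraries, by 1.36 and 0.79 between the means. Slc37a2, a sugar phosphate exchanger of the endoplasmic reticulum, had 6.25, 6.19 and 6.31 in islet 4-8 and 4.55, 4.49 and 4.57 in spleen 4-8, 1.71 apart. In 12-4.4m1, where its mean normalized count was 9.54, it had 3.03, 3.30 and 3.48 in islets and 2.93, 2.83 and 3.12 in spleen, with overlap. Both genes were named for such differences, so these values describe them and support nothing further. Slc16a3, the lactate exporter, is not in the set because its mean normalized count was 3.23 in the spleen table and 8.78 in the 12-4.4m1 tissue table. Its FPKM were 14.1 in islets and 0.952 in spleen in 4-8, and 6.26 and 0.979 in 12-4.4m1, given as a description, since it is low in every spleen group and reached the level in 4-8 through its islet libraries. Slc11a2, an iron transporter, and Slc12a2, a sodium, potassium and chloride carrier, were also outside the set and had no call where they were tested.

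**Figure D3:**
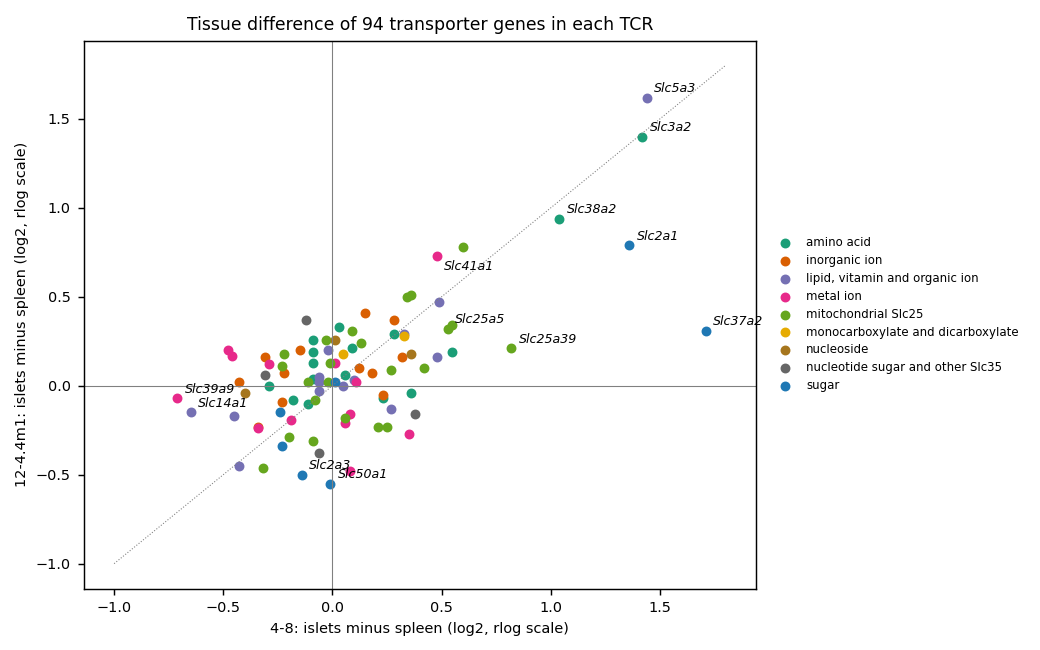
Tissue difference (islets minus spleen, log2 on the rlog scale) of the 94 transporter genes in 4-8 (x axis) and in 12-4.4m1 (y axis), 1 point per gene, coloured by substrate class, with the dotted line at equal differences. Slc3a2, Slc5a3 and Slc38a2 lie near that line at the upper right, while Slc37a2 (1.71 and 0.31) and Slc2a1 (1.36 and 0.79) lie below it.

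Across the 92 genes the tissue differences of the TCRs correlated with an r of 0.67, where all genes tested in both gave 0.71. Without the genes called in both TCRs these were 0.44 over 89 members and 0.53 over 8004 genes. These are correlations across genes, which are not independent replicates, from libraries that do not overlap between the tables. The difference had the same sign in both TCRs for 57 of the 92 genes.

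Other measured groups moved with tissue. Of genes known to rise with heat shock and tissue dissociation, all 15 tested were higher in islets in 4-8 and all 16 in 12-4.4m1, with medians of 1.84 and 1.75, and Fos differed by 4.24 and 4.46. Of the 17 listed, 10 were tested in the spleen comparison, and Fos was not among them. The summed level of that list, on the linear scale of the rlog values, was 9104 to 10436 in islets and 3508 to 3702 in spleen for 4-8, and 8491 to 10561 against 3022 to 3545 for 12-4.4m1. Pancreatic acinar markers were higher in islets for 9 of 11 tested genes in 4-8 and 8 of 9 in 12-4.4m1. None of the 21 listed was tested in the spleen comparison, so those tested here reached the level through their islet libraries. These counts are therefore a description. The summed level of the acinar list was 143 to 250 in islets and 98.5 to 108 in spleen for 4-8, and 239 to 306 against 122 to 135 for 12-4.4m1, with Prss1 and Amy2a5 at 0. These spleen sums are overstated, since rlog values of low genes are pulled towards a mean that includes the islet libraries. In the comparison of the TCRs in spleen, 14 of the 21 listed genes were at 0. There the list summed to 14.7 to 15.4 in 4-8 and 14.5 to 15.9 in 12-4.4m1. Of 14 islet endocrine markers none was tested in 4-8 and 1 in 12-4.4m1, and Slc2a2, Slc30a8, Nkx6-1, Pdx1 and G6pc2 were at 0 in every table. That list summed to 7.13 to 7.49 in islets and 7.51 to 7.99 in spleen for 4-8, and to 12.6 to 14.1 and 13 to 24.5 for 12-4.4m1. None of 8 B cell markers was tested, and they summed to 9.29 to 9.72 and 10.3 to 13.2, and to 11.9 to 14.3 and 14.9 to 15.4. Myeloid markers summed to 50.5 to 59.4 in islets and 46.8 to 61.4 in spleen for 4-8, and to 22.1 to 23.1 and 22.4 to 24.1 for 12-4.4m1, and their transporter Slc11a1 had a mean of at most 1.48. Of 8 Treg and T cell markers tested, 3 were higher in islets in 4-8 and 2 in 12-4.4m1: Ctla4, an inhibitory receptor of Tregs, by 2.03 and 2.21, Cd4 by 0.71 and 0.86, and Cd3e by 0.52 in 4-8. No other marker of this list passed, with Foxp3 at -0.06 and 0.08, Ikzf2 at -0.29 and -0.28, and Il2ra at 0.15 and -0.21. That list summed to 10206 to 10746 in islets and 7852 to 8527 in spleen for 4-8, and to 6644 to 7148 and 5403 to 6217 for 12-4.4m1. Of the CD8 T and NK cell markers, Klrd1 was higher in islets in 4-8 by 0.96 (1 of 2 tested). Klrd1 was not tested in the spleen comparison. The other, Eomes, differed by -0.77 ± 0.25 in 4-8 and did not pass (adjusted p = 0.0651). In 12-4.4m1 Eomes alone was tested, at -0.28 ± 0.20, and did not pass. The list summed to 44.3 to 84.0 in islets and 65.8 to 83.5 in spleen for 4-8, and to 29.8 to 40.9 and 33.1 to 39.7 for 12-4.4m1. Of the endothelial and stromal markers Pecam1 alone was tested, at -0.67 in 4-8, where it passed, and -0.48 in 12-4.4m1, where it did not, and the list summed to 21.1 to 27.5 and 30.4 to 40.5, and to 19.5 to 30.7 and 30.1 to 31.6. The part of any of these in the transporter differences was not tested.

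Genes that act with the transporters were read from lists chosen with earlier results known. Of the partners and regulators, 27 were tested in 4-8, where 1 was higher and 2 were lower in islets, and 24 in 12-4.4m1, with the same counts. Txnip, which draws glucose transporters off the cell surface, was lower in islets, with log2 differences of -1.37 ± 0.19 and -1.04 ± 0.18 (adjusted p of 1.26e-04 and 4.32e-04). Emb, which escorts lactate carriers to the surface, differed by -0.74 ± 0.20 and -0.71 ± 0.18 (adjusted p of 0.0278 and 0.0152). Tfrc, the transferrin receptor for iron, was higher in 4-8 by 0.78 ± 0.18 (adjusted p = 0.0136), and Orai1, a calcium channel, in 12-4.4m1 by 0.76 ± 0.18 (adjusted p = 0.0113). In the other TCR neither passed, with Tfrc at 0.35 ± 0.19 in 12-4.4m1 (adjusted p = 0.305) and Orai1 at 0.51 ± 0.15 in 4-8 (adjusted p = 0.0521). Atf4, a regulator of amino acid transporter genes, differed by 0.51 ± 0.16 and 0.25 ± 0.16 and did not pass (adjusted p of 0.0542 and 0.410).

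Of the nutrient-handling enzymes, 7 of 19 tested were higher in islets in 4-8 and 5 of 19 in 12-4.4m1, and none was lower. Over all genes tested, 5.14% and 4.63% passed as higher. Among the enzymes below 0, Pnp differed by -0.57 ± 0.17 in 4-8 (adjusted p = 0.0512) and by -0.08 ± 0.20 in 12-4.4m1. Hk2, the inducible hexokinase that traps glucose after uptake, differed by 0.97 ± 0.19 and 1.05 ± 0.25 (adjusted p of 0.00453 and 0.00937), and Pkm, pyruvate kinase, by 0.88 ± 0.15 and 0.49 ± 0.14 (adjusted p of 8.50e-04 and 0.0312). Hk2 was not tested in the spleen comparison, so here it reached the level through its islet libraries. Ldha, which makes lactate, was higher in 4-8 by 0.76 ± 0.14 (adjusted p = 0.00167), and in 12-4.4m1 it differed by 0.48 ± 0.15 and did not pass (adjusted p = 0.0601).

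Between the TCRs in islets, no transporter chosen by level passed, against a background of 0.365% of 8212 genes and 0.315% of the 7928 that reached the level in all 4 tables. At an unadjusted p under 0.05 there were 4 of the 92, against 6.78% of all genes. By the authors' DESeq2 results no member passed, against 0.353% of all genes, and 3 had an unadjusted p under 0.05, against 4.16%. By their Cuffdiff results no member passed, against 0.635% of all genes. Groups did not overlap for 11 of the 92 genes (12.0%), where 11.9% of all genes had this pattern. The median difference, 4-8 minus 12-4.4m1, was -0.03, against -0.00 over all genes tested. The median SE was 0.19. Beside these values, the heat shock and dissociation list had a median of -0.38 with 0 of 17 called and summed to 7897 to 8883 in 4-8 and 9350 to 11585 in 12-4.4m1, and acinar markers had -0.19 with 0 of 14 called and summed to 268 to 375 and 355 to 432. Their part in the transporter values was not tested.

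The genes of smallest p in islets, none of which passed, were led by Slc35a1. It had 5.60 and 5.45 in 4-8 replicates 1 and 2 and 5.77 in the library without a matched number, against 5.0, 5.22 and 4.70 in 12-4.4m1, a difference of 0.63 ± 0.20 (adjusted p = 0.284). Slc2a3 had 6.30, 6.46 and 6.25 against 5.80, 5.51 and 5.88, a difference of 0.60 ± 0.19 (adjusted p = 0.305). Slc25a39 had 6.06, 6.19 and 6.09 against 5.58, 5.55 and 5.71, a difference of 0.50 ± 0.19 (adjusted p = 0.485). In all 3 the 4-8 libraries stood above those of 12-4.4m1. Slc29a1 differed by 0.37 ± 0.19 without overlap. Slc39a7, a zinc carrier of the secretory pathway, differed by -0.39 ± 0.20, and Slc35a2, the UDP-galactose carrier, by -0.35 ± 0.17, with overlap in both.

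The classes differed little in this comparison. The sugar class had the highest median, 0.31 (0.29 without Slc45a4), with 4 of its 5 genes above 0, and the mitochondrial class had 0.11 with 13 of 23. Medians of the other classes lay between -0.13 and 0.01. The amino acid genes spanned -0.22 (Slc15a4, a lysosomal peptide and histidine carrier) to 0.22 (Slc1a5), and Slc3a2, Slc38a2 and Slc7a5 differed by 0.07, 0.16 and 0.18, each with overlapping groups. Slc5a3 differed by 0.29 ± 0.21 (adjusted p = 0.848).

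The pair named outright is given here as a description. Slc37a2 had 5.75, 5.72 and 5.81 in 4-8 and 4.45, 4.67 and 4.88 in 12-4.4m1, 1.09 between the means, with FPKM of 20.2 and 3.19. Slc2a1 had 6.55, 6.54 and 6.61 against 6.21, 5.50 and 5.92, 0.69 between the means, with FPKM of 48.6 and 22.6. In each the 4-8 libraries lay within 0.1 of each other and above all 12-4.4m1 libraries. In the authors' deposited DESeq2 table the log2 fold changes were 1.60 for Slc37a2 and 0.90 for Slc2a1.

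**Figure D4:**
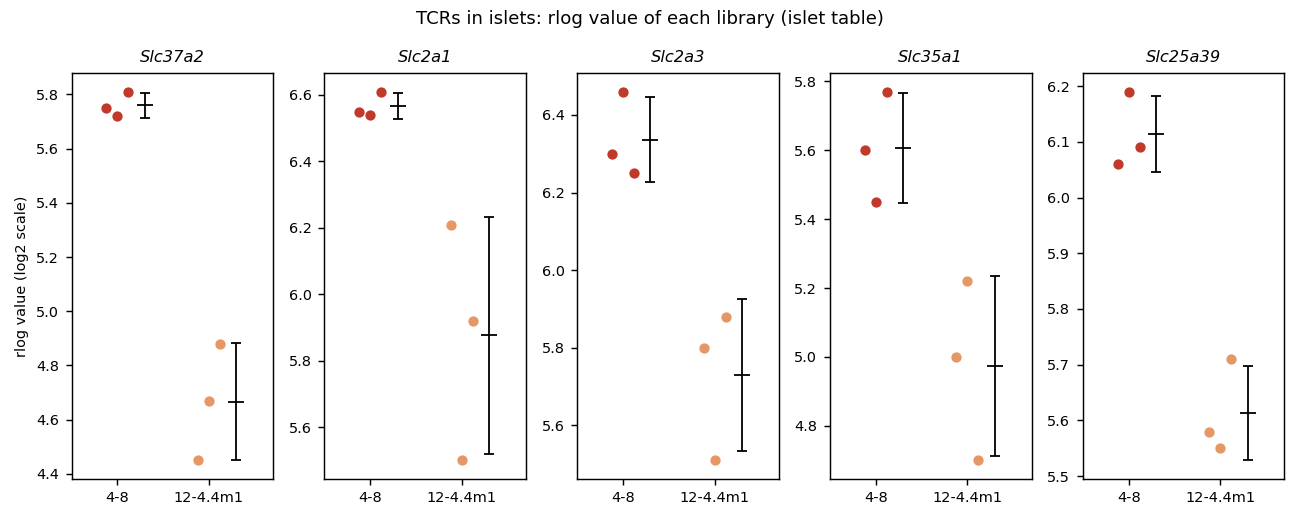
The rlog value of each islet library (log2 scale) for 5 transporter genes in 4-8 and 12-4.4m1, with the mean and SD of 3 libraries in black and a separate axis range for each gene that does not start at 0. The 4-8 points stand above the 12-4.4m1 points in every panel. Slc37a2 and Slc2a1 were chosen for this pattern and the other 3 genes did not pass the adjusted threshold.

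In spleen no transporter chosen by level passed between the TCRs, against a background of 0.428% of 9108 genes and 0.467% of the 7928 that reached the level in all 4 tables. There were 9 of 92 at an unadjusted p under 0.05, where 7.93% of all genes had one. By the authors' DESeq2 results no member passed, against 0.231% of all genes, and 3 had an unadjusted p under 0.05, against 3.68%. By Cuffdiff none passed, against 0.912% of all genes. Groups did not overlap for 15 of the 92 (16.3%) and for 13.3% of all genes. The smallest adjusted p was 0.412, for Slc14a1, which had 6.20, 6.08 and 6.24 in 4-8 and 5.93, 5.89 and 5.69 in 12-4.4m1, a difference of 0.33 ± 0.12. Slc39a9 differed by 0.33 ± 0.13, Slc35a3, the UDP-N-acetylglucosamine carrier, by -0.33 ± 0.12, Slc30a1 by 0.29 ± 0.11, Slc5a3 by 0.37 ± 0.15 and Slc45a4 by 0.31 ± 0.13. Of these 6 genes only Slc5a3 had overlapping groups, with 6.67, 6.37 and 6.51 against 5.74, 6.23 and 6.46.

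The spread between spleen libraries was narrower than between islet libraries, with a median SE of 0.12 against 0.19, and the fitted differences of the 92 genes spanned only -0.33 to 0.37. Slc3a2 had 7.28, 7.63 and 7.49 against 7.53, 7.37 and 7.45, and Slc38a2 had 7.61, 7.72 and 7.70 against 7.68, 7.58 and 7.67. Their differences were 0.02 ± 0.13 and 0.03 ± 0.12, with overlapping groups. Slc2a1 had 5.10, 4.81 and 4.91 in 4-8 and 4.78, 4.75 and 4.66 in 12-4.4m1, 0.21 between the means and without overlap. Slc37a2 was near its floor in spleen, with 3.15, 3.18 and 3.22 against 3.06, 2.98 and 3.19 and FPKM of 1.95 and 0.966. Of the partner genes, Emb passed, at -0.83 ± 0.15 (adjusted p = 0.00565). Between the TCRs in islets Emb differed by -0.75 ± 0.20 and did not pass (adjusted p = 0.145).

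**Figure D5:**
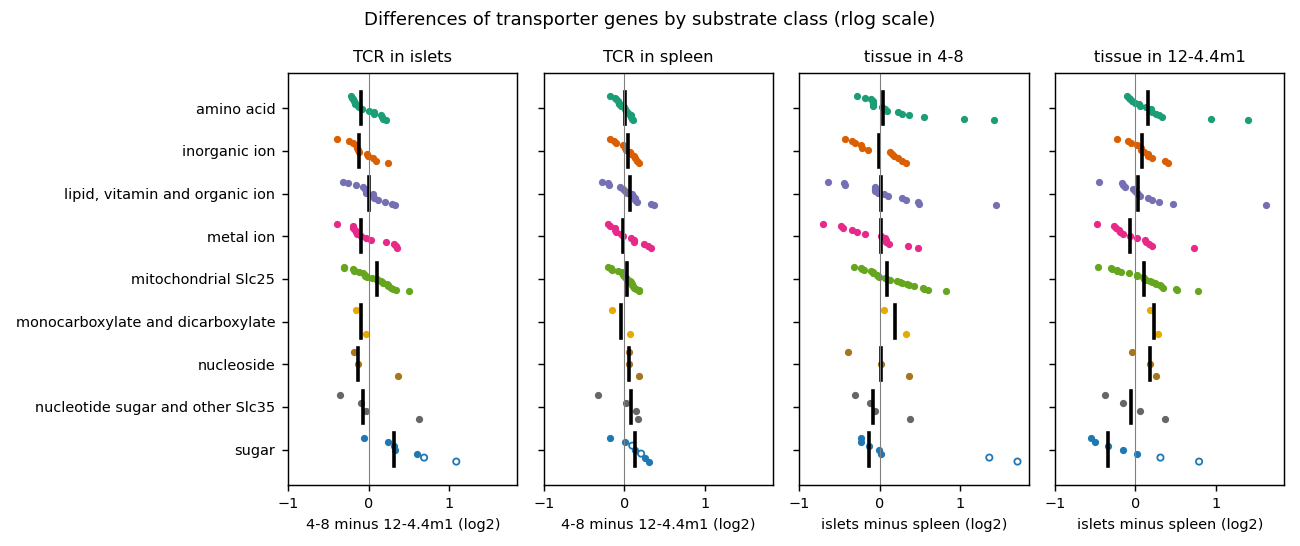
Difference of each transporter gene (log2 on the rlog scale, x axis) by substrate class in the 4 comparisons, with filled points for genes chosen by level, open circles for Slc2a1 and Slc37a2, and a black bar at the median of the filled points. The points spread more widely between tissues than between TCRs, and the sugar class is at 0.31 between the TCRs in islets and at -0.14 and -0.34 between tissues.

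Whether the TCR difference itself differed between islets and spleen was tested in a joint fit of 12 libraries. The islet 4-8 library without a matched number is among them. The values of the fit came from the islet and the spleen comparison, which were normalized separately, so the pull on low genes can differ between them. The fit also takes a common spread for islets and spleen. None of the 92 genes passed, where 0.0373% of 8049 genes did and 0.0252% of the 7928. An unadjusted p under 0.05 was found for 5 of the 92 genes and for 5.39% of all genes. The smallest adjusted p was 0.881, for Slc30a1, at -0.48 ± 0.19, from differences of -0.19 in islets and 0.29 in spleen. Slc25a39 (0.50 ± 0.21), Slc30a5, a zinc carrier of the secretory pathway (0.53 ± 0.24), Slc39a3 (-0.44 ± 0.20) and Slc39a9 (-0.50 ± 0.23) followed, each with an adjusted p of 0.901. For Slc3a2, Slc38a2 and Slc5a3 the values were 0.06 ± 0.23, 0.13 ± 0.22 and -0.08 ± 0.27. The calls made in 1 TCR and not in the other (such as Slc25a39, Slc25a5, Slc39a9 and Slc14a1 in 4-8, and Slc41a1 in 12-4.4m1) are therefore not shown to differ between the TCRs. For Slc2a1 the value was 0.48 ± 0.23, given as a description.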

How the data were processed

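Sorted Tregs were lysed in Triton X-100, reverse transcribed and amplified, and libraries were made with Nextera XT, per the labels. The authors' tools, per the submitters' processing notes, include TopHat 1.0.0, Cufflinks, STAR 1.1.0, DESeq, DESeq2 1.1.0 and the build mm10 (GRCm38), with no roles given. The authors deposited, per comparison, rlog values per library (log2 scale), a DESeq2 table with the mean normalized count (a signal over all 6 libraries), log2 fold change, Wald score, p-value and adjusted p, and a Cuffdiff table with 1 FPKM per group and p-value and q-value. The sources used here give neither the depth per library nor the strand setting of counting.

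The rlog values were fitted here with limma 3.58.1 (lmFit, eBayes with trend) in R 4.3.3 over all genes with a mean normalized count of at least 10 in that table, two-sided, with Benjamini-Hochberg adjustment over all of them. Differences are 4-8 minus 12-4.4m1 or islets minus spleen, with the SE of the fit; ± after a difference is that SE. The scripts were tested on simulated data. Rows of 2 repeated symbols (4 rows) were left out. Columns were matched to samples by title. Positions are from GENCODE vM21.

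The transporter genes and lists were chosen with earlier results of these data known. Genes were named by rule: the members past the threshold, up to 10 in each direction; where fewer than 6 passed, those of smallest p up to 6; the leading 2 of each class by FPKM; and a set of well-known transporters; other lists by up to 4 genes of smallest p. Slc7a6, Slc6a6, Slc15a4, Slc25a4, Slc25a11, Slc25a44, Slc25a51, Slc28a2, Slc37a1, Slc37a3, Slc4a7, Slc38a10, Fos, Atf4, Mrps6, Erh, Pnp, Foxp3, Ikzf2 and Il2ra stand partly outside these rules and were added after their values were seen. Alternatives tried were the eBayes settings, the filter, median centring, the replicate number in the model, title style where islets entered, Xist level in the spleen comparison, leaving out the spleen libraries numbered 2, each library left out, and the authors' DESeq2 tables. Results of some genes are not reported here.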

Additional observations from a re-analysis of the deposited data

How the results depend on the processing

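The 3 transporters called in both TCRs passed in every alternative of each tissue comparison, title style in 12-4.4m1 aside, and no value changed sign where it was called. Over the named genes, 548 values kept their direction and, where tested, their side of the threshold (Slc2a1 and Slc37a2 have no test), 27 lost a call, 3 gained one, 5 moved and none reversed. These counts take in title style and repeated fits. The number of members called between tissues in 4-8, 7, ranged from 3 to 13 when 1 library was left out: 3 without spleen replicate 1, 4 without spleen replicate 2, spleen replicate 3 or islet replicate 1, and 13 without islet replicate 2. Over all genes, 717, that range was 306 to 1211. Title style in the model gave 13 and in effect repeats the fit without islet replicate 2. Leaving out the spleen libraries numbered 2 gave 4 and is the fit without spleen replicate 2. In 12-4.4m1 the number, 5, ranged from 3 to 6, with 3 without spleen replicate 1, spleen replicate 3 or islet replicate 3, and over all genes, 575, from 288 to 610. The cause of these moves was not tested; where a library is left out fewer samples enter the fit. The counts of 0 in the TCR comparisons and in TCR by tissue were 0 under every alternative run. Log2 fold changes of the authors' deposited DESeq2 tables were wider than those of the rlog values for Slc37a2 (1.60 in islets and 2.91 between tissues in 4-8) and Slc2a1 (0.34 in spleen, 2.05 in 4-8 and 1.51 in 12-4.4m1). Centring each library on its median moved the median of all genes by at most 0.015.

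With the replicate block, 8 members passed between tissues in 4-8 and 6 in 12-4.4m1, against 7 and 5 without it, and 0 in the TCR comparisons, while all genes gave 729 and 724 against 717 and 575, and 54 and 78 against 30 and 39 between the TCRs in islets and spleen. With the block Slc50a1 passed between tissues in 12-4.4m1 (adjusted p = 0.0463). Between the TCRs in islets the block leaves only 1 residual degree of freedom and 2 pairs of the same number. Of the 4 libraries in those pairs, 1 correlated best with its own number (-0.0390 to 0.127). Nothing in the labels ties a number to 1 mouse, and in no comparison were all pairs of same-numbered libraries correlated above 0.1. In spleen, all 6 libraries correlated best with their own number across genes (0.0748 to 0.120), against 0 of 6 between tissues in 4-8 (-0.118 to -0.0480) and 2 of 6 in 12-4.4m1 (-0.0330 to 0.0404), which is a hint from the data and not the design.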
